A study of Homo sapiens with 8 samples.

Results

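The 10 genes described here encode mitochondrial enzymes of the citric acid cycle that carry neither an iron-sulfur cluster nor a lipoyl group. They are CS, IDH2, IDH3A, IDH3B, IDH3G, SUCLG1, SUCLG2, SUCLA2, FH and MDH2, chosen by name from the 15852 genes of the deposited count table. All 10 were listed, and all 10 were among the 11841 genes with enough counts to test. RNA came from KYSE150, an established line of human esophageal squamous cell carcinoma. The 4 control libraries (NC1 to NC4, genotype Control) were compared with 4 libraries of cells carrying a short hairpin RNA against the long isoform of BOLA3 (KD1 to KD4, genotype ShBOLA3-L), and the labels give no further treatment for either group. Whether libraries came from separate cultures or clones is not given in the sources used here, so the p-values measure the spread between these libraries, which may be technical.

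The cycle oxidizes the acetyl group of acetyl-CoA to carbon dioxide in the mitochondrial matrix and passes electrons to the respiratory chain as NADH and as reduced flavin. Its intermediates also leave the matrix as precursors of lipids, amino acids and haem. BOLA3 acts in the transfer of iron-sulfur clusters inside mitochondria. The 10 enzymes differ in this from succinate dehydrogenase, which holds such clusters, and from the oxoglutarate dehydrogenase complex, which needs lipoyl groups made with their help.

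After knockdown, 4 of the 10 genes rose, 1 fell and 5 did not pass the test. IDH2, the NADP-dependent isocitrate dehydrogenase, rose most (137% of control). SUCLG2 (121%), FH (120%) and MDH2 (113%) also rose, and IDH3B, a regulatory subunit of the NAD-dependent isocitrate dehydrogenase, fell to 87.5% of control. Within enzymes built of several subunits, the genes did not move together. Over all tested genes, 15.0% rose and 15.6% fell by the same test (edgeR quasi-likelihood, Benjamini-Hochberg adjusted p under 0.05), 30.7% in all. The median log2 change of the 10 genes was 0.04, against 0.0014 over all tested genes. By absolute log2 change, where rank 1 is the largest of 11841 genes, IDH2 ranked 917, SUCLG2 2086, FH 2296, IDH3B 3482 and MDH2 3857. These 5 exceeded the median absolute log2 change over all tested genes, 0.113, and the other 5 lay below it. Their ranks were 6115 for IDH3A, 6152 for SUCLG1, 8510 for IDH3G, 9200 for SUCLA2 and 10084 for CS. Genes that pass the test tend to have the larger changes, so the position of the 5 called genes is no separate result.

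The libraries held 31178036 to 35147860 counts, and each of the 10 genes was counted at least 1370 times in every library. BOLA3 itself fell to 31.7% of control (log2 change -1.66, SE 0.082, edgeR adjusted p 6.9e-11), counting all its transcripts together. BOLA3-L knockdown replicate 1 stood apart from the other knockdown libraries (second principal component 16.8, against -7.64 to -4.17), and it was the highest or the lowest knockdown library in 9 of the 10 genes, as it was in 75.6% of tested genes. The calls of the 10 genes and of the further lists are therefore also given without it. All 8 markers of squamous epithelium examined were tested, with a summed level of 4407 to 4457 CPM (counts scaled to a common library size, as for all levels given in CPM) in controls and 2672 to 2999 CPM after knockdown. Most of this sum was KRT5 (mean 3132 CPM in controls and 1936 CPM after knockdown). All 8 markers fell and passed the test (over all tested genes 15.6% fell). Of 6 fibroblast markers COL1A1 was measured at 9.15 to 13.7 CPM in controls and 3.17 to 6.10 CPM after knockdown, and the summed list at 9.85 to 14.7 and 4.25 to 7.0 CPM, with COL1A2 at 0 in 6 libraries. Of 5 leukocyte markers only CD68, a lysosomal protein that many cells make, exceeded 0.189 CPM (summed list 77.6 to 84.6 and 73.9 to 79.4 CPM), and CD3E was at 0 in 7 libraries. The 4 endothelial markers summed to 0.880 to 1.82 CPM in controls and 1.87 to 2.44 CPM after knockdown, with PECAM1 at 0 in 7 libraries. The part of these marker differences in the results below was not tested, and in bulk RNA fewer cells of a type and less RNA per cell cannot be told apart.

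The promoters are shown for the members in which a motif of a factor known for nuclear genes of mitochondrial proteins was found, to give its place before the gene. Whether any of these factors takes part in the changes was not tested. All 10 genes matched an entry of RefSeq's promoter windows on GRCh38.p14, 300 bases that run from upstream of the start into the gene, and both strands were searched. For IDH2, on the minus strand, the upstream bases of the window were 90100622 to 90100871. They lie inside the gene span given below, which reaches 90102468. The counts for the 10 genes describe these windows only and not starts outside them. The letters CCGGAAG, the core bound by GABP and other ETS factors, were in 3 of the 10 windows and in 10.3% of 35116 windows genome-wide. The letters AAGGTCA, the half-site of estrogen-related receptors, were in 1 of the 10 and in 3.92% genome-wide. The NRF1 palindrome was in 0 of the 10 and in 1.24% genome-wide. Of the common promoter elements, GGGCGG (GC box) was in 5 of the 10 and 45.0% genome-wide, CCAAT in 5 and 34.6%, and CACGTG (E-box) in 0 and 7.26%. Capitals below mark the match, each in 30 bases read 5′ to 3′ on the strand of the gene.
MDH2, chr7:76047982-76048011, plus strand, match at -113: ctttccgactcCCGGAAGtggccgtgatct
MDH2, chr7:76048026-76048055, plus strand, match at -69: ggcgagcgcgaCCGGAAGtccggtcactct
IDH3B, chr20:2664238-2664267, minus strand, match at -40: ctcagtacaggCCGGAAGtcggggtacggg
IDH3G, chrX:153794449-153794478, minus strand, match at -92: tgctctaggcgCCGGAAGggggcgtgaatc
SUCLA2, chr13:48001438-48001467, minus strand, match at -183: gcccagttccaAAGGTCAaagcttgctccg
MDH2, which rose, held 2 ETS matches, IDH3B, which fell, held 1, and IDH3G, which did not pass the test, held 1. The upstream bases of the MDH2, IDH3B, IDH3G and SUCLA2 windows also hold exons of genes on the other strand. The matches need not belong to the named genes alone. A match describes the letters only and is not evidence of binding.

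Levels per gene length were compared on the FPKM scale (fragments scaled by gene length and library size), as deposited. In controls MDH2 was the highest of the 10 (317 ± 9.33 FPKM, SD, n = 4), followed by CS (159 ± 4.91), IDH3B (83.2 ± 1.21), SUCLG1 (58.6 ± 1.14) and IDH3G (43.7 ± 0.777). IDH3A (31.6 ± 1.58), FH (29.7 ± 1.09), IDH2 (26.4 ± 0.594), SUCLA2 (22.0 ± 1.56) and SUCLG2 (16.6 ± 0.566) followed. Each gene's 4 control values lay apart from those of its neighbour in this order, except that IDH3A and FH overlapped. After knockdown the upper 5 places were held by the same genes in the same order. IDH2 (36.8 ± 2.79 FPKM) moved from the eighth place to the sixth, level with FH (36.0 ± 1.03) within their ranges, and FH overlapped IDH3A (34.5 ± 0.710). SUCLG2 (20.4 ± 0.948) came to overlap SUCLA2 (21.7 ± 0.830), which on this scale it had lain below in every control library.

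**Figure D1:**
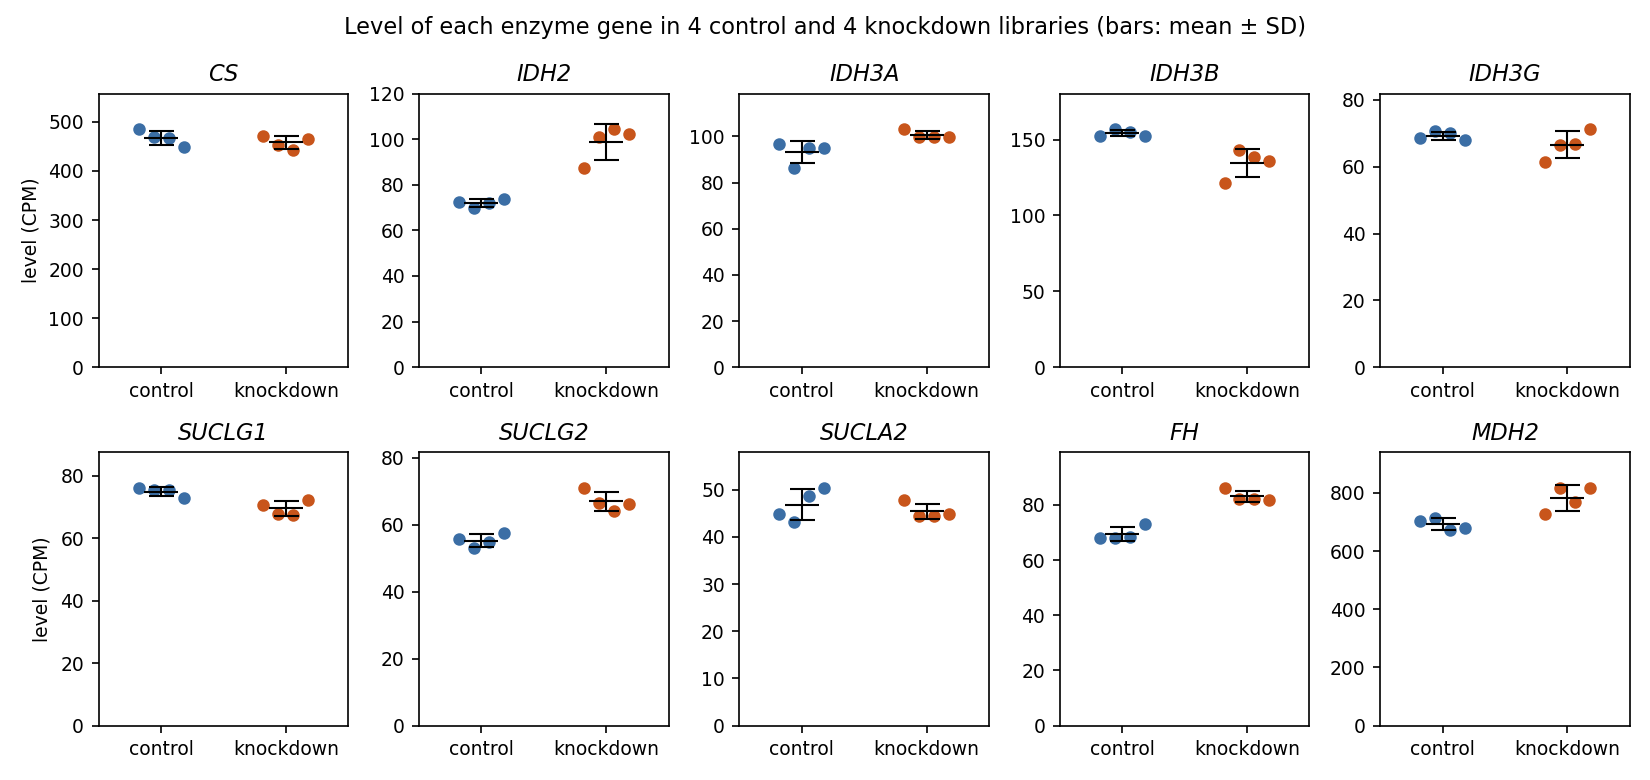
Level of each of the 10 genes in CPM (vertical axes, each from 0) in the 4 control libraries (blue) and the 4 knockdown libraries (orange), in the order of replicates 1 to 4 from left to right, with bars for the mean ± SD. The groups lie apart in 7 of the 10 panels, against 30.2% of all tested genes. IDH2, IDH3A, SUCLG2, FH and MDH2 are higher after knockdown (14.6% of all tested genes), IDH3B and SUCLG1 lower (15.6%). Of these, IDH3A and SUCLG1 did not pass the edgeR test.

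CS, citrate synthase, joins acetyl-CoA to oxaloacetate and starts the cycle (identifier 1431, chromosome 12, 56271699 to 56300330 in GRCh38). Controls 1 to 4 gave 485, 469, 468 and 449 CPM, knockdown libraries 1 to 4 gave 471, 453, 443 and 465 CPM, and the groups overlapped. The log2 change was -0.03 with a 95% interval from -0.10 to 0.04, and it did not pass the test (edgeR adjusted p 0.539), nor did it with BOLA3-L knockdown replicate 1 left out (-0.04, adjusted p 0.198). Sequence shared with other annotated genes covered 12.5% of CS, so part of its counts cannot be assigned with certainty.

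IDH2, the mitochondrial isocitrate dehydrogenase that makes NADPH (identifier 3418, chromosome 15, 90083045 to 90102468), showed the largest change. Control replicates 1 to 4 held 72.6, 69.7, 72.0 and 73.8 CPM, and knockdown replicates 1 to 4 held 87.3, 101, 104 and 102 CPM. All knockdown libraries lay above all controls, with replicate 1 the lowest of them. IDH2 rose from 72.0 ± 1.68 to 98.7 ± 7.74 CPM (SD, n = 4 each), a log2 change of 0.46 (SE 0.052, edgeR adjusted p 2.7e-06). Without BOLA3-L knockdown replicate 1 the log2 change was 0.51. No window of its transcript was shared with another annotated gene.

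The NAD-dependent isocitrate dehydrogenase is assembled from a catalytic alpha subunit (IDH3A) and from beta and gamma subunits (IDH3B, IDH3G) that regulate it, and its genes diverged. IDH3A (identifier 3419, chromosome 15, 78149362 to 78171945) stood at 96.9, 86.3, 95.1 and 94.9 CPM in controls and 103, 99.6, 99.9 and 99.5 CPM after knockdown. Every knockdown value lay above every control, by a narrow margin, and the log2 change of 0.11 (95% interval 0.02 to 0.20) missed the threshold after adjustment (edgeR adjusted p 0.0687). With BOLA3-L knockdown replicate 1 left out, IDH3A passed (log2 change 0.10, adjusted p 0.0272), and it passed in limma on log2 FPKM (adjusted p 0.0345), where 17.2% of genes rose. Its annotated exons share 38.2% of their bases with ACSBG1 on the opposite strand, a gene counted at most 5 times in any library. Whether the counting used strand is not given in the sources used here, so how reads in the shared bases were counted is not known. The level of IDH3A and its ratios carry this limit.

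IDH3B (identifier 3420, chromosome 20, 2658395 to 2664216) was the one member that fell. Its level was 153, 157, 155 and 153 CPM in control replicates 1 to 4 and 122, 143, 139 and 136 CPM in knockdown replicates 1 to 4. The groups did not overlap, and replicate 1 was again the lowest knockdown library. The fall from 154 ± 2.07 to 135 ± 9.26 CPM (SD, n = 4 each) was a log2 change of -0.19 (SE 0.045, edgeR adjusted p 0.0032), and it shrank to -0.15 when BOLA3-L knockdown replicate 1 was left out (adjusted p 9.9e-05).

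IDH3G (identifier 3421, chromosome X, 153785768 to 153794375) was measured at 68.7, 70.6, 69.9 and 68.0 CPM in controls and 61.4, 66.6, 66.9 and 71.2 CPM after knockdown. Knockdown replicate 1 was below all controls and replicate 4 above them, so the groups overlapped. The log2 change of -0.06 (95% interval -0.16 to 0.04) did not pass the test (edgeR adjusted p 0.386), nor did the value of -0.02 with BOLA3-L knockdown replicate 1 left out (adjusted p 0.702). Exons of SSR4 on the opposite strand share 10.2% of the exon bases of IDH3G, and SSR4 was counted 1875 to 2500 times per library, so some reads of the pair cannot be told apart unless the counting used strand, which is not given in the sources used here.

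Succinate-CoA ligase pairs a common alpha subunit (SUCLG1) with 1 of a pair of alternative beta subunits, SUCLG2 for the form that makes GTP and SUCLA2 for the form that makes ATP. SUCLG1 (identifier 8802, chromosome 2, 84423528 to 84459280) stood at 76.2, 75.4, 75.3 and 72.8 CPM in controls and 70.8, 67.8, 67.4 and 72.4 CPM after knockdown. The knockdown values lay below the controls, with control replicate 4 and knockdown replicate 4 nearly level, and the log2 change of -0.11 (95% interval -0.20 to -0.02) missed the threshold (edgeR adjusted p 0.0680). SUCLG1 passed in DESeq2 (adjusted p 0.0486), where 16.3% of genes fell, and with BOLA3-L knockdown replicate 1 left out (adjusted p 0.0147).

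SUCLG2 (identifier 8801, chromosome 3, 67360460 to 67654612) was counted at 55.9, 52.9, 54.8 and 57.5 CPM in controls and 71.1, 66.5, 64.1 and 66.2 CPM after knockdown. All knockdown libraries lay above all controls, and knockdown replicate 1 was the highest. SUCLG2 rose from 55.3 ± 1.93 to 67.0 ± 2.94 CPM (SD, n = 4 each), a log2 change of 0.28 (SE 0.047, edgeR adjusted p 0.00024), which was 0.25 without BOLA3-L knockdown replicate 1. The processed pseudogene SUCLG2P2 shared 10.9% of the SUCLG2 transcript.

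SUCLA2 (identifier 8803, chromosome 13, 47942656 to 48001273) stood at 44.9, 43.3, 48.7 and 50.4 CPM in controls and 47.8, 44.5, 44.5 and 44.9 CPM after knockdown. The knockdown values lay inside the range of the controls, which varied more in this gene than in any other of the 10 (coefficient of variation 7.10%). The log2 change was -0.05 (95% interval -0.16 to 0.07, edgeR adjusted p 0.573), and -0.07 with BOLA3-L knockdown replicate 1 left out (adjusted p 0.256).

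FH, fumarate hydratase, converts fumarate to malate and is made in a mitochondrial and a cytosolic form from 1 gene (identifier 2271, chromosome 1, 241497603 to 241519755), which the counts do not separate. It stood at 68.1, 68.2, 68.2 and 73.3 CPM in controls and 86.3, 82.3, 82.0 and 81.9 CPM after knockdown. The groups lay apart, although control replicate 4 and knockdown replicate 1 each stood above the other libraries of their group. FH rose from 69.5 ± 2.55 to 83.1 ± 2.10 CPM (SD, n = 4 each), a log2 change of 0.26 (SE 0.043, edgeR adjusted p 0.00018), which was 0.24 without BOLA3-L knockdown replicate 1.

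MDH2, malate dehydrogenase, closes the cycle by remaking oxaloacetate and also serves the malate-aspartate shuttle (identifier 4191, chromosome 7, 76048106 to 76067508). Controls held 704, 714, 673 and 678 CPM and knockdown libraries 727, 817, 769 and 818 CPM. The groups lay apart, with knockdown replicate 1 close above the highest control. MDH2 rose from 692 ± 20.1 to 783 ± 43.5 CPM (SD, n = 4 each), a log2 change of 0.18 (SE 0.039, edgeR adjusted p 0.0019), and by 0.21 without BOLA3-L knockdown replicate 1.

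**Figure D2:**
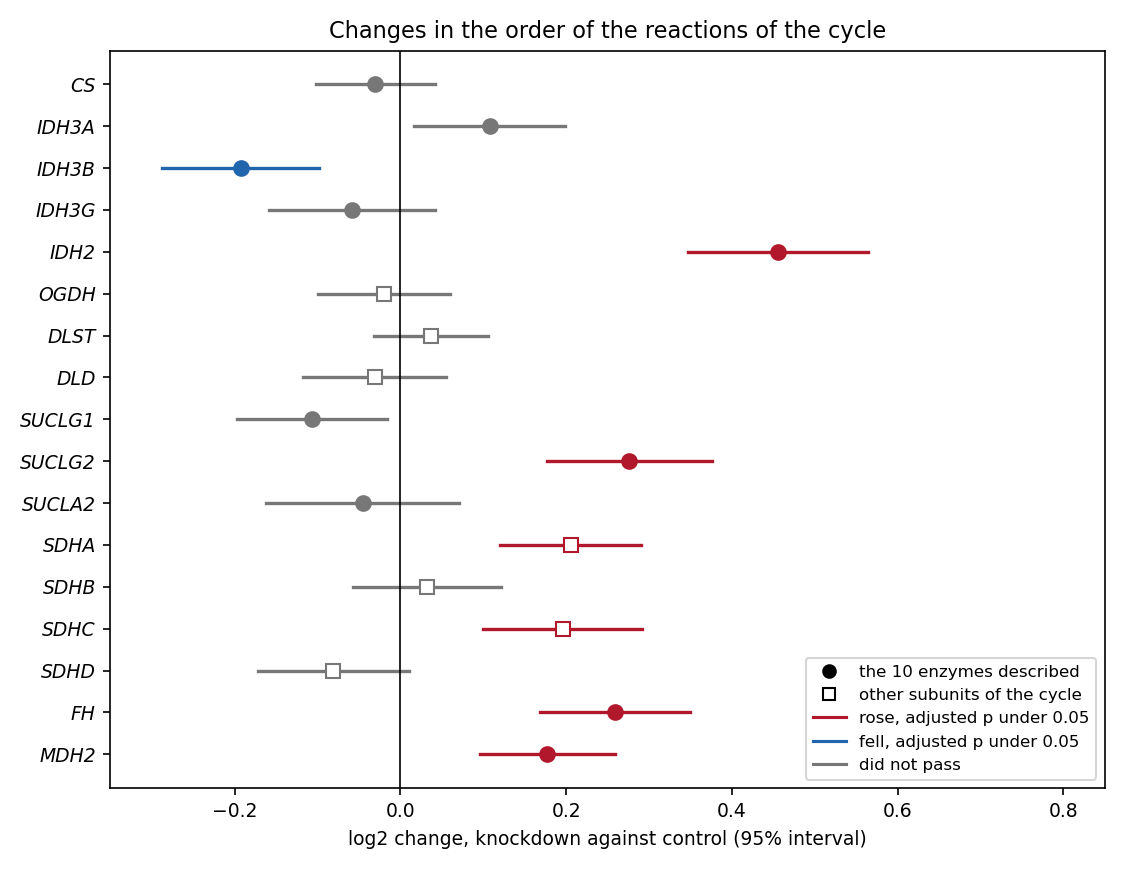
Log2 change after knockdown (horizontal axis) with its 95% interval for the enzymes of the cycle in the order of their reactions, the 10 genes described as filled circles and the other subunits as open squares. Red marks genes that rose (IDH2 the largest, 0.46), blue the gene that fell (IDH3B, -0.19) and grey those that did not pass an adjusted p under 0.05.

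The groups of 7 of the 10 genes did not overlap, against 30.2% of all tested genes. The knockdown libraries were all higher in 5 of the 7 and all lower in 2, against 14.6% and 15.6% of all tested genes. Without BOLA3-L knockdown replicate 1, 5 of the 10 rose (IDH3A in addition) and 2 fell (SUCLG1 in addition), while over all tested genes 21.2% rose and 21.5% fell (42.7% in all).

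Whether partner genes moved differently was tested on the ratio of both genes within each library, which does not depend on how libraries are scaled. Of 11 pairs compared, 7 differed between the groups at an adjusted p of 0.0449 (exact two-sided permutation test over 70 assignments, p = 0.0286 each, the smallest that 4 against 4 libraries allow, Benjamini-Hochberg adjusted over the pairs). All 7 had this smallest p, and with fewer pairs tied at it none would have passed an adjusted p under 0.05. The 7 are not separate results. Several share a gene, and each holds SUCLG2, IDH3B, IDH2 or FH, which passed the test as single genes. What share of gene pairs in general would differ was not tested, while the groups of 30.2% of single tested genes did not overlap. Ratios are given per length, as FPKM over FPKM.

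The beta subunits of succinate-CoA ligase shifted against each other. SUCLG2 over SUCLA2 was 0.795, 0.782, 0.719 and 0.729 in control replicates 1 to 4 and 0.951, 0.955, 0.920 and 0.943 in knockdown replicates 1 to 4. On this scale the GTP-form subunit came close to the level of the ATP-form subunit in all 4 knockdown libraries. In CPM, which is not scaled by gene length, mean SUCLG2 stood above SUCLA2 in controls (55.3 and 46.8) and after knockdown (67.0 and 45.4). Which of them is higher therefore depends on the gene lengths used, while the shift of their ratio does not. The log2 ratio rose by 0.32 (SE 0.038). Against the common alpha subunit, SUCLG2 over SUCLG1 went from 0.284 ± 0.0142 to 0.370 ± 0.0148 (SD, n = 4 each; log2 change 0.38). SUCLA2 over SUCLG1 was 0.377 ± 0.0329 and 0.393 ± 0.0141, with overlapping groups (exact permutation p = 0.371).

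In the NAD-dependent isocitrate dehydrogenase, the beta subunit dropped relative to both partners. IDH3B over IDH3A was 2.51, 2.90, 2.60 and 2.56 in controls and 1.88, 2.29, 2.21 and 2.18 after knockdown, a log2 change of -0.31 (SE 0.078). IDH3B over IDH3G was nearly constant in controls (1.90 ± 0.011) and lower in every knockdown library (1.73 ± 0.0900, SD, n = 4 each; log2 change -0.14). IDH3G over IDH3A overlapped between the groups (1.39 ± 0.0936 and 1.24 ± 0.0926; log2 change -0.17, exact permutation p = 0.0571, adjusted p 0.0698).

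IDH2 gained on both of its counterparts. Against IDH3A its ratio was 0.839 ± 0.0288 in controls and 1.07 ± 0.0996 after knockdown (SD, n = 4 each; log2 change 0.34). Against IDH1, the cytosolic and peroxisomal NADP-dependent enzyme, it was 0.413, 0.407, 0.439 and 0.433 in controls and 0.469, 0.541, 0.607 and 0.595 after knockdown (log2 change 0.38). Knockdown replicate 1 showed the smallest gain in both ratios.

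Among the remaining pairs FH over CS rose (0.187 ± 0.0124 to 0.228 ± 0.0048, SD, n = 4 each; log2 change 0.29). MDH2 over its cytosolic counterpart MDH1 overlapped between groups (2.95 ± 0.168 and 3.20 ± 0.286, exact permutation p = 0.171), and so did CS over the cytosolic ATP citrate lyase ACLY (1.85 ± 0.0775 and 2.0 ± 0.120, exact permutation p = 0.0571). With 1 library fewer (35 assignments), the 7 ratios kept their direction in all 56 of 56 values, but none of the 7 passed the adjusted test without any one of control replicates 1 to 4 or BOLA3-L knockdown replicates 1 to 3. Without BOLA3-L knockdown replicate 4, 7 pairs passed, IDH3G over IDH3A in place of FH over CS. Without BOLA3-L knockdown replicate 1 the log2 changes were 0.31 for SUCLG2 over SUCLA2, 0.36 for SUCLG2 over SUCLG1, -0.24 for IDH3B over IDH3A, -0.12 for IDH3B over IDH3G, 0.41 for IDH2 over IDH3A and 0.46 for IDH2 over IDH1 (exact permutation adjusted p 0.0524 each), and 0.29 for FH over CS (0.0785).

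**Figure D3:**
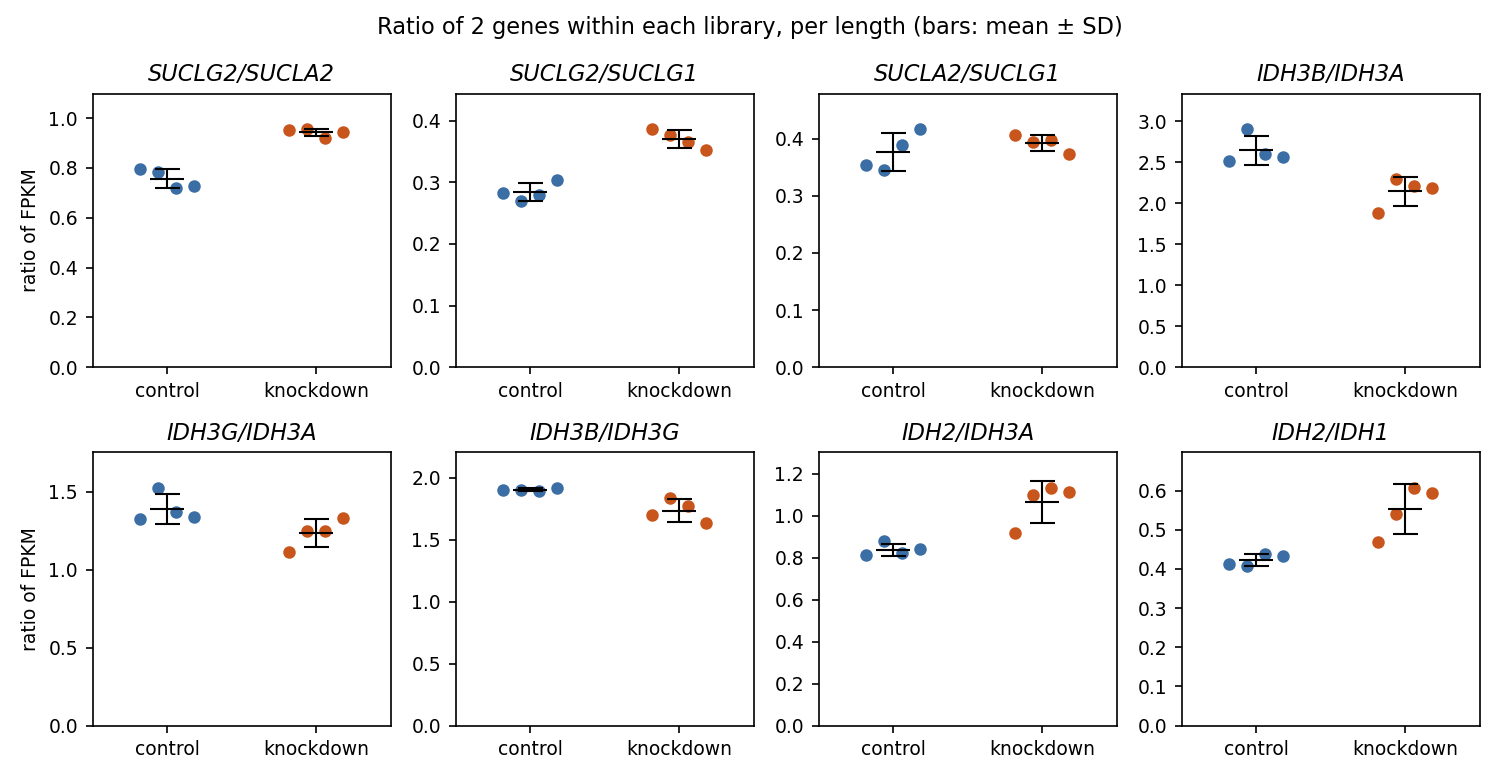
Ratio of 2 genes within each library on the FPKM scale (vertical axes, each from 0) in control (blue) and knockdown (orange) libraries, with bars for the mean ± SD. SUCLG2/SUCLA2 rises from 0.756 to 0.942 and IDH3B/IDH3A falls from 2.64 to 2.14 without overlap, while SUCLA2/SUCLG1 and IDH3G/IDH3A overlap.

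Of the 7 genes examined for succinate dehydrogenase and the oxoglutarate dehydrogenase complex, 2 rose and the other 5 did not pass (over all tested genes 15.0% rose). The succinate dehydrogenase genes SDHA and SDHC rose by log2 changes of 0.21 and 0.20 (edgeR adjusted p 0.00083 and 0.0033). SDHD (-0.08) and SDHB (0.03) did not pass. OGDH, DLST and DLD, the subunits of the oxoglutarate dehydrogenase complex, lay between -0.03 and 0.04. The median over the 7 genes was 0.03. With BOLA3-L knockdown replicate 1 left out, SDHA and SDHC rose and SDHD fell (over all tested genes 21.2% rose and 21.5% fell).

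Of 6 cytosolic enzymes with related reactions, 3 fell and 3 did not pass, with a median of -0.07 (over all tested genes 15.6% fell). ACO1, the cytosolic aconitase that also serves as an iron sensor, fell by 0.37 on the log2 scale (edgeR adjusted p 4.0e-05), ACLY by 0.15 and the aspartate aminotransferase GOT1 by 0.14. IDH1 (0.07), MDH1 (0.06) and the malic enzyme ME1 (0.0014) did not pass. GOT1 lost its call when control replicate 1, control replicate 3 or BOLA3-L knockdown replicate 3 was left out (adjusted p 0.0506 to 0.0573). With BOLA3-L knockdown replicate 1 left out, ACO1, ACLY and GOT1 fell (over all tested genes 21.5% fell).

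A further list held genes that supply the cycle with acetyl-CoA or intermediates, regulators of pyruvate dehydrogenase and the transhydrogenase NNT. Of its 15 tested genes, 3 fell and the other 12 did not pass, with a median of -0.06 (over all tested genes 15.6% fell). PDP1, a phosphatase that activates pyruvate dehydrogenase, fell by 0.28 on the log2 scale (edgeR adjusted p 8.8e-05), PDK1, a kinase that inactivates it, by 0.15 and the component PDHX by 0.14. Control and knockdown values overlapped in PDK1 and PDHX. GLUD1, glutamate dehydrogenase, changed by -0.08 and did not pass. PDK1 lost its call on leaving out control replicate 2, control replicate 4 or any of BOLA3-L knockdown replicates 2 to 4 (adjusted p 0.0506 to 0.0937). PDHX lost it on leaving out any of control replicates 2 to 4 or of BOLA3-L knockdown replicates 2 to 4 (adjusted p 0.0631 to 0.136). In this list 2 genes rose and 6 fell without BOLA3-L knockdown replicate 1 (over all tested genes 21.2% and 21.5%), and 1 fell on leaving out control replicate 2, control replicate 4 or any of BOLA3-L knockdown replicates 2 to 4.

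Of 9 carriers of the inner membrane that exchange cycle intermediates, pyruvate, glutamate or aspartate, SLC25A22, a glutamate carrier, rose (log2 change 0.24, edgeR adjusted p 0.0032) and the other 8 did not pass (over all tested genes 15.0% rose). The groups of SLC25A22 overlapped, with knockdown replicate 1 (60.1 CPM) inside the control range of 55.7 to 60.7 CPM. The aspartate-glutamate carrier SLC25A13 stood at -0.12, the dicarboxylate carrier SLC25A10 at 0.13 and the oxoglutarate carrier SLC25A11 at 0.10 on the log2 scale. The median of the 9 was 0.10. Without BOLA3-L knockdown replicate 1, 4 carriers rose and SLC25A13 fell (over all tested genes 21.2% rose and 21.5% fell).

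Of 11 tested regulators of mitochondrial genes or proteins, 3 fell and the other 8 did not pass, with a median of -0.06 (over all tested genes 15.6% fell). The list was not limited to regulators of nuclear genes, and among the 8 were TFAM (log2 change 0.0019), SIRT3 (0.10) and SIRT5 (0.12). The coactivators PPARGC1B and PPRC1 fell by 0.25 and 0.18 on the log2 scale and the transcription factor YY1 by 0.18 (edgeR adjusted p 0.0038, 0.0019 and 0.00076). GABPA, the DNA-binding subunit of GABP, stood at 0.11 and its partner GABPB1 at -0.15, and neither passed (adjusted p 0.110 and 0.128). The estrogen-related receptor ESRRA (0.08) and NRF1 (-0.06) did not pass either. With BOLA3-L knockdown replicate 1 left out, ESRRA rose and GABPB1 fell in addition, 1 and 4 of the 11 in all (over all tested genes 21.2% rose and 21.5% fell). PPARGC1A was counted at most 1 time in any library.

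**Figure D4:**
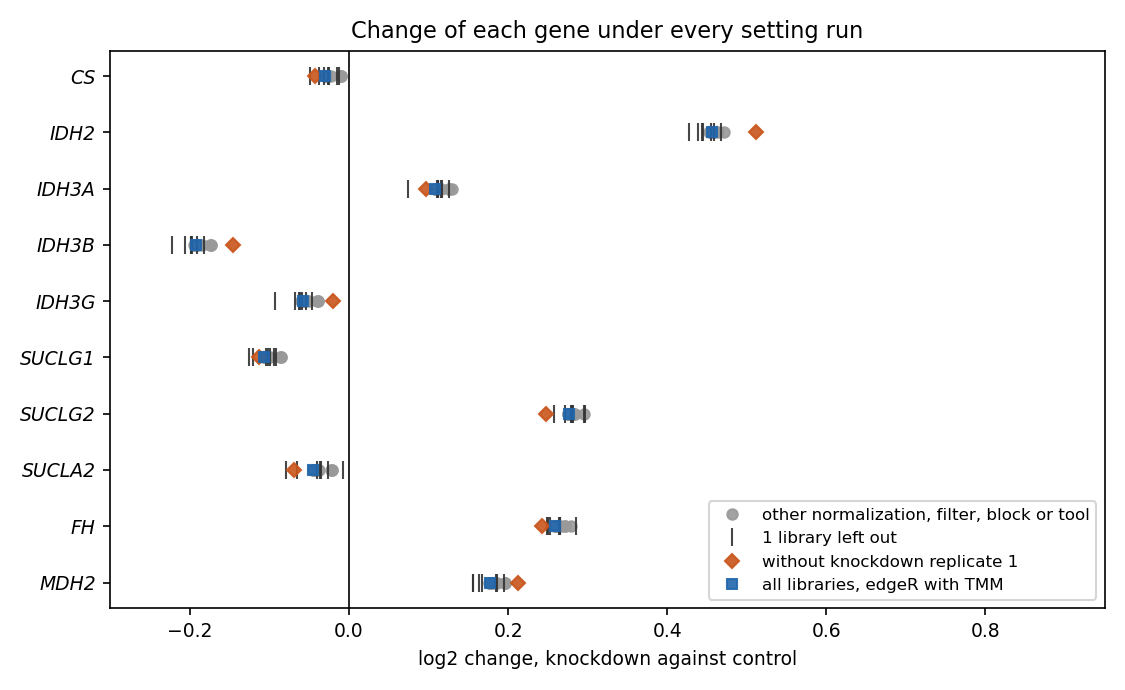
Log2 change of each of the 10 genes (horizontal axis) with all libraries in edgeR (blue squares), under other normalizations, filters, the replicate block or tools (grey circles), with 1 library left out (bars) and without BOLA3-L knockdown replicate 1 (orange diamonds). Each gene keeps its side of 0 in every setting drawn, and the values of IDH2 run from 0.43 to 0.51.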

How the data were processed

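RNA was extracted with TRIzol and libraries were made with the VAHTS Universal V6 kit and read as 150 bp pairs, per the labels' protocols. Reads were filtered with fastp, per the series' design text. The build is hg38 per the submitters' processing notes. Which aligner, counter and annotation were used, and whether counting used strand, is not given in the sources used here. Raw counts per gene were deposited by the authors, with FPKM values in a separate table. Dividing each count by its library's sum and by a single length for the gene returned the deposited FPKM in all 110558 nonzero entries (tolerance 1e-06).

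Counts were filtered with filterByExpr, normalized by TMM and compared with edgeR's robust quasi-likelihood test (95% intervals from its standard errors, SE = absolute log2 change over the square root of F). CPM values use TMM-scaled libraries. The 3-count floor is 0.0851 to 0.0969 CPM. Shared sequence is the share of 75-base windows of the longest coding transcript found in other GENCODE v29 genes. All 10 members are named, with BOLA3 and up to 4 genes of smallest p of each further list and the partners in the ratios, and any others were chosen after their values were seen. Members and lists were chosen with earlier results of these data known. Some genes of the cycle and some overlapping genes are not reported here. Replicate numbers did not pair the libraries. Alternatives were other normalizations and filters, DESeq2 1.42.0, limma 3.58.1 on log2 FPKM, a replicate block and leaving out each library, with edgeR 4.0.16 in R 4.3.3, and Python 3.11.15.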

Additional observations from a re-analysis of the deposited data

Results flagged for a closer look

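A single library stood far from the other 3 of its group in 5 of 42 groups of levels and ratios examined, where chance gives about 1 in 20. In 4 of them it was BOLA3-L knockdown replicate 1: for IDH3A (103 CPM, against 99.5 to 99.9 CPM in the other knockdown libraries), for SUCLA2 (47.8 CPM, against 44.5 to 44.9), for FH (86.3 CPM, against 81.9 to 82.3) and for the ratio of IDH2 to IDH3A (0.919, against 1.10 to 1.13). The remaining one was FH in control replicate 4 (73.3 CPM, against 68.1 to 68.2).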

How the results depend on the processing

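IDH2, SUCLG2, FH, MDH2 and IDH3B kept their direction and their call under all 17 alternatives run, with log2 changes from 0.43 to 0.51, 0.25 to 0.30, 0.24 to 0.29, 0.16 to 0.21 and -0.22 to -0.15. CS, IDH3G and SUCLA2 passed under none of the 17. IDH3A passed in limma on log2 FPKM with a pseudocount of 1 (adjusted p 0.0345), with 0.1 (0.0352) and with no minimum (0.0475). The number of the 10 genes that fell was 2 in DESeq2 and 1 to 2 when 1 library was left out. Over the 48 tested genes of the further lists 3 rose and 9 fell (over all tested genes 15.0% and 15.6%). Without 1 library 3 to 9 of them rose and 7 to 15 fell. The highest of each came without BOLA3-L knockdown replicate 1, where 21.2% and 21.5% of all tested genes rose and fell. Of the ratios 0 to 7 passed without 1 library, and 7 with FPKM and a pseudocount of 1. With the replicate block 4 of the 10 genes rose and 1 fell, as without it; same-numbered libraries deviated with correlations of -0.079 to 0.088 over genes, not every library correlated best with its own number, and the numbers were not taken as pairs. Each of the 10 genes had at least 1370 counts in every library; whether depth or the spread between libraries limits these values more was not tested.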

Other observations

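The deposited annotation places all 10 genes described here under the KEGG citrate cycle. Summed over the 10 genes, the level was 788 ± 10.7 FPKM in controls and 842 ± 22.5 FPKM after knockdown (SD, n = 4 each), given as a description with no test. Most of this difference was MDH2 (mean 317 FPKM in controls and 363 FPKM after knockdown).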
